A study of Mus musculus with 6 samples.

Results

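The genes described here are those of the DNA damage checkpoint and of DNA repair, 46 mouse genes grouped by function. They were chosen with earlier results of these data known, and looked up by symbol in the deposited tables of mouse embryonic stem cells. The tables hold 45 of them, on 49 of 62490 assembled loci, among 49377 gene names in all. Fanca was not analysed here. Of the 45 genes, 43 have loci of their own. Chek1 shares its locus with Stt3a, and Pms2 shares one with Rsph10b and Gm42421, so the values of these loci cannot be assigned to 1 gene.

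RNA was sequenced from 6 libraries in 3 groups of 2 biological duplicates. All cells were blastocyst-derived embryonic stem cells of strain C57BL/6J with floxed Mll1 alleles and a Cre-ER transgene (Mll1fl/fl; Cre-ER TM), grown with leukemia inhibitory factor on mouse embryonic fibroblast feeder cells. The groups were untreated cells, cells kept for 5 days in 1 µM 1α,25-dihydroxyvitamin D3 (VD3, the hormonal form of vitamin D), and cells kept for 5 days in this dose of VD3 plus 100 µM MM-401, which blocks the histone methyltransferase MLL1. The untreated controls carry the floxed alleles and the Cre as well, the labels list no treatment that activates the Cre, and they name no promoter for it. No group had MM-401 alone, so its action without VD3 cannot be told apart from its action with it. The labels list 2 kinds of medium supplement for every library, serum or serum replacement, and no time in culture for the untreated cells, so neither can be told apart from the treatments.

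Each of the tables used here has 1 pooled column per group. Every value below is therefore the authors' value for a pool, with no spread between libraries, and no difference has a replicate check or a p-value. Levels are in FPKM (fragments mapped to a gene, scaled to the length of its transcripts and the size of the library), followed in brackets by the authors' confidence interval, whose level is not stated. For the repair genes with several loci (Atm, Parp2 and Fancm), the bounds are sums of the authors' bounds over the loci. The column names of the untreated and the VD3 plus MM-401 pools match their group's labels only in part, and another meaning of these names would change every comparison with those pools. The pools held 62284598, 73636342 and 73499639 estimated counts in the order untreated, VD3 and VD3 plus MM-401. The standard deviation that the authors' variance gives for a repair gene's count had a median of 17.1%, 17.6% and 17.8% of the count. The 8 pluripotency markers were abundant in every pool (26.4 FPKM or more), with Pou5f1 at 1114, 2053 and 1832 FPKM. Of 18 fibroblast markers, which feeder cells would carry, 10 were below 1 FPKM in every pool and Lum was listed at 0 in all. The fibroblast markers summed to 207, 304 and 287 FPKM, and without Vim, which stem cells also express, to 157, 145 and 122 FPKM. Vim itself had 50.4, 159 and 165 FPKM and was higher with VD3 by the 2-fold rule given below. Most of the sum without Vim was Fn1, at 136, 115 and 101 FPKM, while Thy1 was highest with VD3, at 7.46, 13.8 and 9.41 FPKM. How much feeder RNA the pools held was not tested.

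Cells answer DNA breaks and stalled replication forks through the kinases ATM, ATR and DNA-PK. Of these, ATM and ATR signal through the effector kinases CHK1 and CHK2 to hold the cell cycle. Breaks are then repaired by homologous recombination, which copies an intact sister chromatid, or by end joining, which ligates the ends directly. Damaged bases, mismatches, bulky adducts and interstrand crosslinks are handled by base excision, mismatch repair, nucleotide excision and the Fanconi anaemia pathway. Embryonic stem cells divide fast with a short first gap phase and are known for high levels of recombination and mismatch repair proteins.

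In the untreated cells, repair genes covered a wide range of RNA levels per length. Excluding the shared Chek1 locus (339 FPKM), the highest was Parp1, the poly(ADP-ribose) polymerase that marks DNA nicks, at 201 FPKM. Msh6, the mismatch recognition subunit, followed at 184 FPKM, and Xrcc6, which encodes the Ku70 end-binding protein, at 116 FPKM. These 3 genes were above the 91st percentile of the 15177 genes with at least 1 FPKM. At the other end, Wrn, a helicase of the RecQ family, had 3.60 FPKM (percentile 26.9), Lig4 had 6.33 FPKM and Prkdc 6.97 FPKM. The intervals of Parp1 (127 to 276) and Msh6 (115 to 253) overlapped, as did those of Lig4 (3.99 to 8.67) and Prkdc (4.67 to 9.27), so the order within each pair is not resolved.

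**Figure D1:**
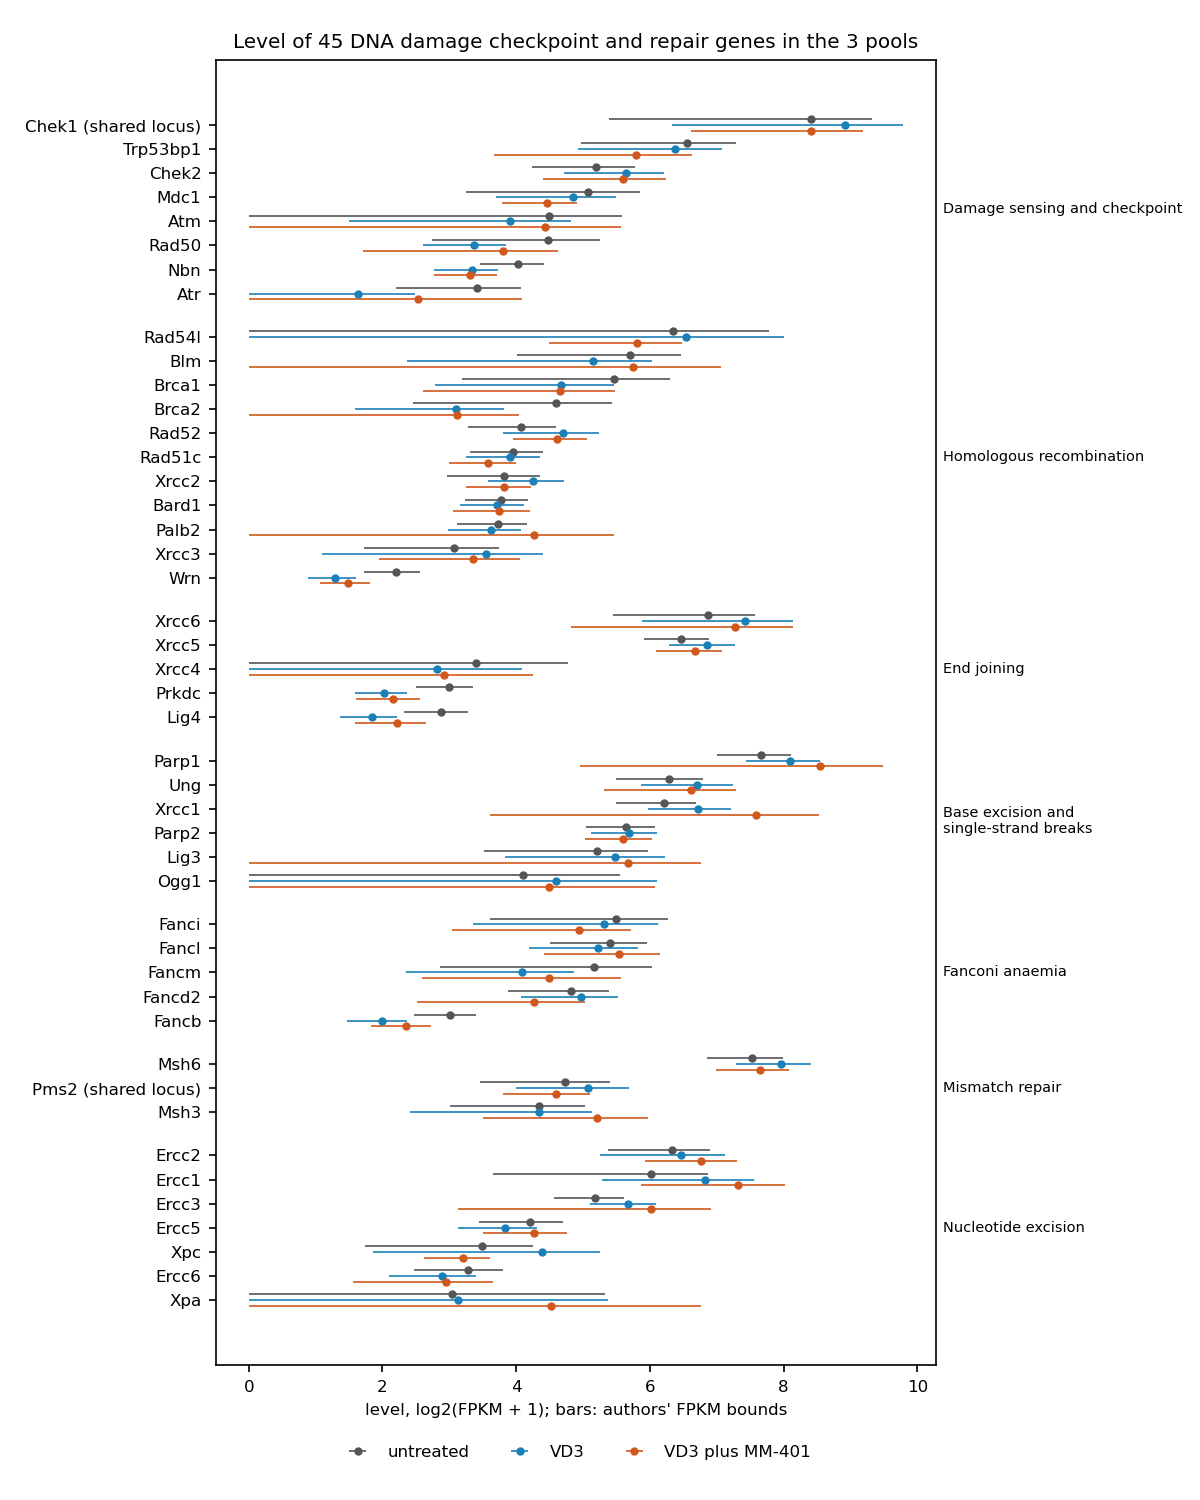
Level of each of the 45 repair genes by role in the 3 pools, as log2(FPKM + 1) on the horizontal axis, with the authors' confidence interval as a bar. Parp1, Msh6 and the shared Chek1 locus are at the top of the range in every pool, and the VD3 bars of Lig4, Fancb, Prkdc and Wrn end below the untreated ones.

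With VD3, few repair genes differed from untreated cells by the rule used here for all genes. The rule for a higher or a lower gene was a difference of at least 2-fold in FPKM + 1, authors' intervals that lay apart, and a level of 5 FPKM or more in the higher pool. Of the 44 repair genes with that level, 0 were higher and 2 were lower, Lig4 and Fancb, each with a log2 difference of -1.02. Among all 10911 genes compared, 0.926% were higher and 4.22% were lower, so the repair genes' 2 of 44 is near the background. Intervals were apart in 1 further gene, Prkdc, whose log2 difference of -0.96 in FPKM + 1 was just short of 2-fold. Its FPKM was 6.97 untreated and 3.08 with VD3, past 2-fold without the added 1.

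The same rule gave 0 higher and 0 lower repair genes of 44 with VD3 plus MM-401 against untreated, where 4.26% of 10966 genes were higher and 2.68% were lower. Between VD3 plus MM-401 and VD3 it gave 0 and 0 of 40, where 0.83% of 10717 genes were higher and 0.541% lower. Both comparisons with untreated cells share the untreated pool and are not independent of each other. In bulk RNA, fewer cells that express a gene and less RNA per cell cannot be told apart.

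The median gene of all those compared was 0.36 (log2) higher with VD3 than in untreated cells, and 0.27 higher with VD3 plus MM-401. Differences of single genes are therefore given as relative log2 differences, from which the median gene's difference has been subtracted. FPKM + 1 is used in them, which understates the differences of genes with low levels. The median repair gene was near no difference as deposited (0.02 with VD3, -0.02 with both agents), and so lay below the median gene, at relative log2 differences of -0.35 and -0.29. In each comparison with untreated cells, 29 of 44 repair genes were below the median gene. The quartiles of all genes were -0.45 and 0.25 with VD3 and -0.45 and 0.44 with both agents. Between the treated pools the repair genes' median was -0.04, with 22 of 40 below, and the role medians ran from -0.34 (mismatch repair) to 0.31 (nucleotide excision).

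**Figure D2:**
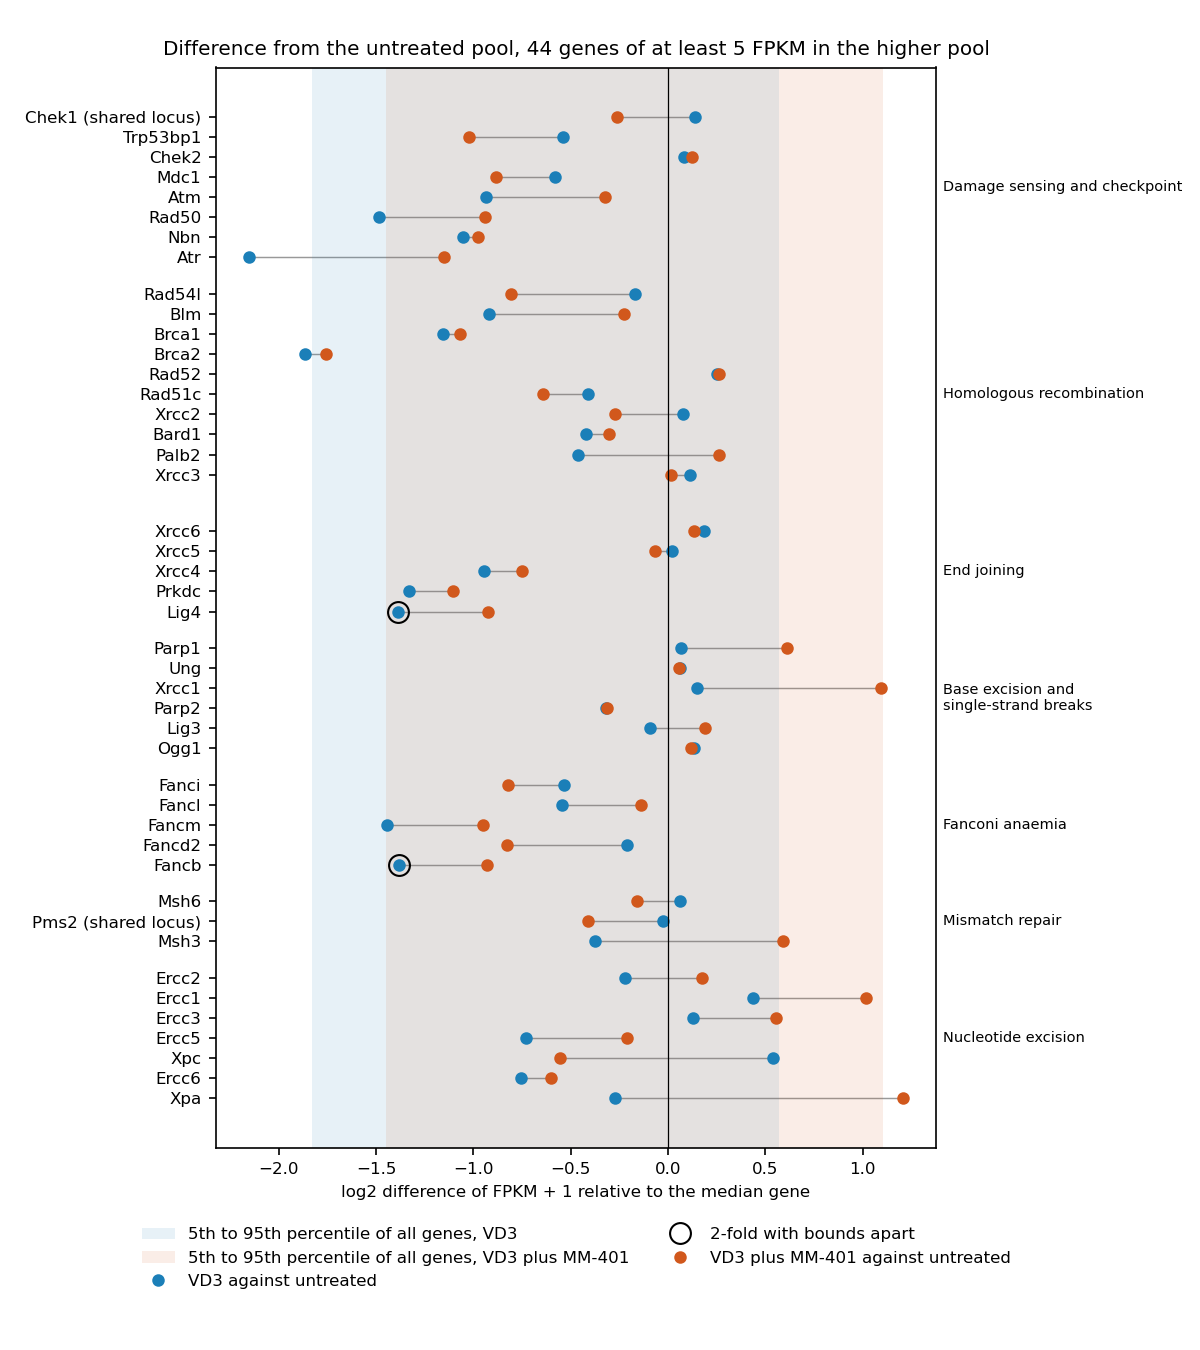
Relative log2 difference of each repair gene, by role, for VD3 (blue) and VD3 plus MM-401 (orange) against untreated cells; the zero line is the median gene, and the shaded bands run from the 5th to the 95th percentile of all genes compared. Checkpoint and Fanconi anaemia genes lie mostly to the left of the line in both comparisons with untreated cells, base excision genes lie around it, and circles mark Lig4 and Fancb, the genes past 2-fold with intervals apart.

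Promoter windows were available for 37 of the 45 genes from RefSeq (GRCm38.p6), each from 250 bases before to 50 after the start of transcription. The 4 printed here are those of Brca2 and Fancb, which were low with VD3, Chek2, whose level stayed near the median gene, and Xpa, which had the highest relative value with both agents. Each is the stretch before the start that lies outside annotated exons, read 5′ to 3′ on the gene's own strand, and the positions are chr5:150522371-150522620 (plus strand) for Brca2, chr5:110839778-110839978 (plus) for Chek2, chrX:164980376-164980591 (plus) for Fancb and chr4:46196312-46196561 (minus) for Xpa. Capitals mark E2F words (GCGGGAAA, the complement of TTTCCCGC) and CCAAT boxes (CCAAT, or ATTGG on the other strand).
Brca2: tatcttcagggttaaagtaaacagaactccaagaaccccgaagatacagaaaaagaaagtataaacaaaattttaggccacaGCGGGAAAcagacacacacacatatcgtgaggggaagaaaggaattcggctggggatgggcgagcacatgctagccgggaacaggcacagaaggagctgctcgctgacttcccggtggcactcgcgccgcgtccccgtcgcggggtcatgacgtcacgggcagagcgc
Chek2: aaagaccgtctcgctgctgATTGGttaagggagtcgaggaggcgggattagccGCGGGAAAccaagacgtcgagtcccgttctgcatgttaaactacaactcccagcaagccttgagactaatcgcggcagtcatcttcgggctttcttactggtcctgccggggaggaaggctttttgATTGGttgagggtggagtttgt
Fancb: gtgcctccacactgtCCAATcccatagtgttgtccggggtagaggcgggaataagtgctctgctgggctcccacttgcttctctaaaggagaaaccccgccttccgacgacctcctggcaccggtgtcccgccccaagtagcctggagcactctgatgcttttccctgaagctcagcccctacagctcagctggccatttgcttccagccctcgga
Xpa: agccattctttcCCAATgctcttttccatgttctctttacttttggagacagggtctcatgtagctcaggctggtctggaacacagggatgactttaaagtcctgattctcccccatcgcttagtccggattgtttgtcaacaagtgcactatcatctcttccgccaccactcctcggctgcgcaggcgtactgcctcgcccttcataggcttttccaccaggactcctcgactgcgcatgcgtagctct

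The 4 stretches show how mixed these promoters are. Brca2 has an E2F word and no CCAAT box, Chek2 has both kinds, and Fancb and Xpa have a CCAAT box and no E2F word. E2F factors drive genes of the S phase, and the words searched for them on both strands were TTTCCCGC, TTTCGCGC, TTTGCCGC and TTTGGCGC. One or more of these words stood in 8 of 37 repair gene promoters (21.6%), those of Bard1, Brca2, Chek2, Mdc1, Msh3, Msh6, Rad51c and Xrcc6. They stood in 2.95% of 16522 promoters of protein-coding genes and in 2.32% of all 27025 promoters of this length. The CCAAT box stood in 19 of 37 (51.4%), against 38.8% of coding promoters, and the ETS word CCGGAAG in 9 (24.3%), against 12.3%. The cell cycle word TTTGAA stood in those of Bard1 and Ercc5 (5.41%, against 15.6%). No window matched the letters searched for a DR3 vitamin D response element, which 0.0303% of coding promoters hold, or a p53 half-site, which 7.25% hold. A match of letters is a description of the sequence and not evidence of binding. The windows of the repair genes held a median of 22 CpG sites, against 14 in coding promoters.

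The RNA differences of genes with and without each word overlapped widely. With VD3 the 8 genes with the word had a median relative log2 difference of -0.39, from -1.87 (Brca2) to 0.19 (Xrcc6), with 5 below the median gene. The 29 without it had a median of -0.32, with 20 below. With both agents the medians were -0.23 in each set. The 9 genes with the ETS word had medians of -0.46 with VD3 and -0.41 with both agents, against -0.29 and -0.18 in the 28 without it. The 19 genes with a CCAAT box had medians of -0.22 and -0.16, against -0.42 and -0.31 in the 18 without one.

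The damage sensing and checkpoint genes lay lowest as a role with both agents. Their median relative log2 difference was -0.76 with VD3 and -0.91 with both agents, with 6 and 7 of 8 genes below the median gene, and none was called. Atr encodes the kinase that answers stretches of single-stranded DNA at stalled forks (chr9:95857597-95951781, GRCm38, plus strand). It had 9.71 FPKM [3.62 to 15.8] untreated, 2.09 [0 to 4.59] with VD3 and 4.81 [0 to 16.0] with both agents. The VD3 pool was the lowest, and its interval overlapped the untreated one. Its relative log2 difference of -2.15 was the lowest of the 44 genes with VD3, and it was -1.15 with both agents. Estimated counts of Atr were 4014 ± 1025, 711 ± 284 and 1003 ± 606 (SD from the authors' variance), low in both treated pools.

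Atm, the kinase that answers DNA breaks, had 21.4 FPKM [0 to 47.0], 14.1 [1.81 to 27.3] and 20.6 [0 to 46.6]. By FPKM its 3 pools overlapped almost wholly. By count, at 7861 ± 1308, 2236 ± 384 and 2983 ± 532, both treated pools of Atm were apart from the untreated one at 2 SD. The 2 treated pools overlapped each other. Rad50, the structural subunit of the complex that tethers break ends, had 21.3 FPKM [5.66 to 37.0], 9.28 [5.10 to 13.5] and 13.0 [2.26 to 23.8]. Its intervals overlapped in all pools, and its relative log2 differences were -1.48 and -0.94. Nbn, which encodes the NBS1 subunit of the same complex, was at 15.2 [10.03 to 20.4], 9.07 [5.85 to 12.3] and 8.94 [5.81 to 12.1]. Both treated pools of Nbn were alike and below the untreated one, again with overlap.

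The adaptor proteins of break sites had a different order of pools. Trp53bp1, which encodes 53BP1, a protein that shields broken ends from resection, had 92.7 FPKM [30.4 to 155], 81.9 [29.3 to 134] and 54.6 [11.8 to 97.5]. Mdc1, which binds phosphorylated H2AX, had 32.6 [8.55 to 56.7], 27.9 [11.96 to 43.8] and 20.9 [12.8 to 29.1]. For both genes the pool with both agents was the lowest, and all intervals overlapped. Exons of Tubgcp4 on the opposite strand cover 22.1% of the exon bases of Trp53bp1, and the counting is not stated to use strand, so reads of the pair cannot be told apart. The effector kinase gene Chek2 did not share the low values. It was at 35.7 [17.8 to 53.7], 49.0 [25.3 to 72.8] and 47.2 [20.2 to 74.2], relative log2 differences of 0.08 and 0.12. The locus that Chek1 shares with Stt3a had 339, 481 and 340 FPKM, relative log2 differences of 0.14 and -0.26.

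Homologous recombination genes differed among themselves. Over the 10 genes compared, the median relative log2 difference was -0.42 with VD3 and -0.29 with both agents, and none was called. Brca2 encodes a mediator of recombination at resected ends (chr5:150522630-150570329, GRCm38, plus strand). It had 23.2 FPKM [4.46 to 42.0] untreated, 7.56 [1.99 to 13.1] with VD3 and 7.64 [0 to 15.4] with both agents. Both treated pools were low and nearly equal, with intervals that overlapped the untreated one, and the relative log2 differences were -1.87 and -1.76. By estimated count Brca2 went from 6930 ± 1149 to 1438 ± 255 and 1174 ± 221. At 2 SD to each side, both treated ranges were apart from the untreated one and overlapped each other. Brca1, its partner in recombination and in end resection, had 43.0 [8.10 to 77.9], 24.4 [5.88 to 42.9] and 24.3 [5.08 to 43.5], relative log2 differences of -1.16 and -1.07. Blm, the RecQ helicase that dissolves crossed-over intermediates, had 51.0 [15.2 to 86.9], 34.4 [4.16 to 64.6] and 52.6 [0 to 133], lowest by FPKM in the VD3 pool, with overlapping intervals. By estimated count Blm was low in both treated pools, at 10476 ± 1775, 5479 ± 940 and 6113 ± 1044.

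With VD3 the other recombination genes were closer to the median gene by FPKM, from -0.46 (Palb2) to 0.25 (Rad52). With both agents Rad54l (-0.81) and Rad51c (-0.64) lay below Blm (-0.23) by FPKM. By estimated count this order was reversed, with Rad54l at 0.04, Rad51c at -0.40 and Blm at -1.04 relative to the median gene. Bard1, the obligate partner of BRCA1, was level as deposited, at 12.7, 12.2 and 12.4 FPKM, with relative log2 differences of -0.42 and -0.30. Palb2, the bridge between BRCA1 and BRCA2, had 12.3, 11.4 and 18.2 FPKM, and the interval of the third pool (0 to 43.0) covered both others. Rad51c and Xrcc2, which aid strand exchange, had 14.5, 14.1 and 11.0 FPKM and 13.1, 18.1 and 13.1 FPKM. Xrcc3, which acts in a complex with Rad51c, was at 7.37, 10.6 and 9.21 FPKM. Rad52, an annealing protein, was among the 3 highest relative values with VD3 (0.25), at 15.9 [8.72 to 23.1], 24.9 [13.0 to 36.7] and 23.4 [14.5 to 32.3] FPKM, with all intervals overlapping. Rad54l, a motor protein that aids strand invasion, had 80.2 [0 to 219], 91.9 [0 to 256] and 54.9 [21.4 to 88.3] FPKM. Its value against VD3 (-0.76) was the second lowest of the 40 genes compared there, with overlapping intervals. The estimated counts of Rad54l were 6176, 8734 and 7671. Wrn did not reach 5 FPKM in any pool and entered no comparison. Its levels were 3.60 [2.31 to 4.89], 1.44 [0.854 to 2.04] and 1.81 [1.10 to 2.52], with the VD3 interval below the untreated one.

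End joining genes were lowest as a role with VD3, at a median relative log2 difference of -0.95 over 5 genes, and at -0.75 with both agents. Both medians are the values of Xrcc4, whose intervals all start at 0. After the adjustment for GC content and length given below, the role medians were 0.04 and -0.18. Lig4, Prkdc and Xrcc4 lay below Xrcc5 and Xrcc6. Their transcripts have 43.4%, 43.3% and 41.3% GC, against 45.6% and 51.0%. Lig4 encodes the ligase that seals the ends (chr8:9969049-9977686, GRCm38, minus strand). It had 6.33 FPKM [3.99 to 8.67] untreated, 2.61 [1.57 to 3.65] with VD3 and 3.65 [2.00 to 5.30] with both agents. The VD3 interval was apart from the untreated one, while the interval with both agents overlapped each of the others. The relative log2 differences were -1.39 and -0.93. Prkdc, the DNA-PK catalytic subunit, had 6.97 [4.67 to 9.27], 3.08 [2.01 to 4.16] and 3.47 [2.05 to 4.89], with the VD3 interval again apart and relative log2 differences of -1.33 and -1.10. Xrcc4, the scaffold of the ligase, had 9.56 [0 to 26.2], 6.05 [0 to 15.9] and 6.56 [0 to 18.1], and its intervals from 0 resolve no order. The Ku subunits, which bind the ends first, were level or higher: Xrcc5 at 87.7, 115 and 101 FPKM and Xrcc6 at 116, 170 and 153 FPKM, relative log2 differences between -0.07 and 0.19.

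Fanconi anaemia genes were all below the median gene in both comparisons with untreated cells, 5 of 5 with medians of -0.54 and -0.83. Fancb, a subunit of the core complex that ubiquitinates FANCD2 (chrX:164980592-164997272, GRCm38, plus strand), had 7.04 FPKM [4.55 to 9.53], 2.97 [1.78 to 4.16] and 4.09 [2.55 to 5.63]. Its VD3 interval was apart from the untreated one, and the pool with both agents lay between and overlapped each. Relative log2 differences were -1.38 and -0.93. Fancm, the translocase that anchors the core complex to DNA, had 34.9 [6.29 to 64.4], 16.0 [4.09 to 28.1] and 21.4 [5.05 to 46.5], summed over 3 loci of that name. Fancl, the ubiquitin ligase subunit, was near level as deposited, at 41.3, 36.4 and 45.3 FPKM, with relative log2 differences of -0.54 and -0.14. Exons of Vrk2 on the opposite strand cover 17.0% of its exon bases. The substrates of the complex were lowest with both agents: Fancd2 had 27.2 [13.7 to 40.8], 30.4 [15.8 to 44.96] and 18.2 [4.69 to 31.7] FPKM and Fanci had 43.8, 38.8 and 29.5 FPKM. The value of Fancd2 against VD3, -0.73, was the third lowest of that comparison, with overlapping intervals.

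Base excision and strand-nick repair genes lay around the median gene, with role medians of 0.06 and 0.16 over 6 genes and no calls. By estimated count the role medians were 0.11 and -0.02. Xrcc1, the scaffold of nick repair, had 73.2 FPKM [44.2 to 102], 105 [61.7 to 148] and 190 [11.2 to 369]. The pool with both agents was the highest, but its interval covered the other 2. The relative log2 difference was 0.15 with VD3 and 1.10 with both agents, while the estimated counts were 8492, 11907 and 12886. Parp1 had 201 [127 to 276], 271 [172 to 371] and 371 [29.9 to 713] FPKM, against counts of 47681, 66649 and 49760. In both genes the FPKM of the third pool was high for its count. Parp2, a second poly(ADP-ribose) polymerase, was level as deposited, at 49.0, 50.6 and 47.5 FPKM, with relative log2 differences of -0.32 and -0.31. Ung, the uracil glycosylase, had 77.0, 104 and 96.7 FPKM and Ogg1, the 8-oxoguanine glycosylase, 16.2, 23.2 and 21.5 FPKM, relative log2 differences of 0.06 to 0.13. Lig3, the ligase partner of XRCC1, had 36.0, 43.6 and 49.9 FPKM but counts of 8130, 9045 and 5998, and exons of Rffl on the opposite strand cover 27.9% of its exon bases.

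Mismatch repair genes had role medians of -0.03 and -0.16 over 3 loci. Msh6 had 184, 247 and 198 FPKM, near the median gene. Msh3, its alternative in recognition of longer loops, had 19.4 [7.07 to 31.7], 19.2 [4.31 to 34.1] and 36.0 [10.4 to 61.5] FPKM. Its value against VD3 (0.85) was the second highest of that comparison, with overlapping intervals and counts of 3862, 3375 and 4458. The locus of Pms2, Rsph10b and Gm42421 had 25.7, 32.7 and 23.1 FPKM.

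By FPKM, nucleotide excision genes held the highest relative value of each comparison, and role medians of -0.22 and 0.17 over 7 genes. By estimated count the signs were reversed, with role medians of 0.14 and -0.04 relative to the median gene. Xpa, which verifies the lesion (chr4:46155347-46196311, GRCm38, minus strand), had 7.24 FPKM [0 to 39.0], 7.79 [0 to 40.4] and 22.0 [0 to 107]. Its relative log2 differences with both agents, 1.21 against untreated and 1.36 against VD3, were the highest of each comparison. All its intervals began at 0 and its counts were 192 ± 299, 247 ± 428 and 403 ± 522, so its SD exceeded its count in each pool and no difference is resolved. Ercc1, the partner of the XPF nuclease that cuts before the lesion, had 64.0 [11.6 to 116], 112 [38.0 to 186] and 158 [57.1 to 258], relative log2 differences of 0.44 and 1.02. Its levels lay in the order untreated, VD3, both agents, with overlap of all intervals. Xpc, the lesion sensor, had 10.2 [2.32 to 18.1], 19.9 [2.61 to 37.2] and 8.20 [5.17 to 11.2]. It was highest with VD3 (0.54, the highest of the 44 genes) and had the lowest value against VD3 with MM-401 added (-1.21), without any interval apart.

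The other nucleotide excision genes were of 2 kinds. The helicases of the transcription factor TFIIH, Ercc2 and Ercc3, had 79.3, 87.7 and 108 FPKM and 35.3, 50.1 and 63.4 FPKM. Their estimated counts were highest with VD3, at 3618, 5193 and 4516 and at 5916, 8785 and 6944. Exons of Klc3 on the opposite strand cover 16.4% of those of Ercc2. Ercc5, the nuclease that cuts after the lesion, and Ercc6, which senses stalled RNA polymerase, were lowest with VD3, at 17.4, 13.3 and 18.2 FPKM and at 8.71, 6.40 and 6.73 FPKM. All 4 genes had overlapping intervals.

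Estimated counts gave a different number of low genes. On this scale the estimated count is divided by the pool's total, with no correction for length, and its range is 2 SD of the authors' variance to each side. With VD3, 9 of 44 repair genes were lower by at least 2-fold with ranges apart (Atm, Atr, Blm, Brca2, Fancb, Fancm, Lig4, Prkdc and Rad50), a larger share than the 9.33% of all genes, and 0 were higher, against 0.192%. With both agents 5 of 44 were lower (Atm, Atr, Brca2, Prkdc and Rad50), against 5.77% of all genes, and 0 higher, against 1.85%. Against VD3 with MM-401 added, 0 of 40 were higher or lower, against 0.607% and 0.0933%. The genes listed encode the kinases ATM, ATR and DNA-PK, RAD50, the ligase LIG4, and recombination and crosslink proteins. Chek2 and the Chek1 locus were not called. The roles of the listed genes had median transcript GC contents from 43.4% (end joining) to 46.5% (homologous recombination). None was from base excision (53.6%), mismatch repair (48.5%) or nucleotide excision (51.1%), so role and GC content cannot be told apart here. Whether these shares differ from the background was not tested.

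The scales part where the ratio of FPKM to count differs between pools. In the pool with both agents, FPKM per count was more than 1.5 times that of the untreated pool for 10 of 44 repair genes (Atm, Atr, Blm, Brca2, Ercc3, Lig3, Msh3, Palb2, Parp1 and Xrcc1), against 4.95% of all genes. With VD3 it was so for Atm and Brca2 (2 of 44, against 1.99%). In the other direction, 1 of 44 repair genes with both agents was below 1/1.5 (Rad54l, at 0.55), against 273 of 10829 genes. For Atm the ratio was 2.31 with VD3 and 2.53 with both agents. FPKM per count depends on the transcript length that the authors' program gave a locus in each pool, and which scale is closer to the RNA was not tested.

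**Figure D3:**
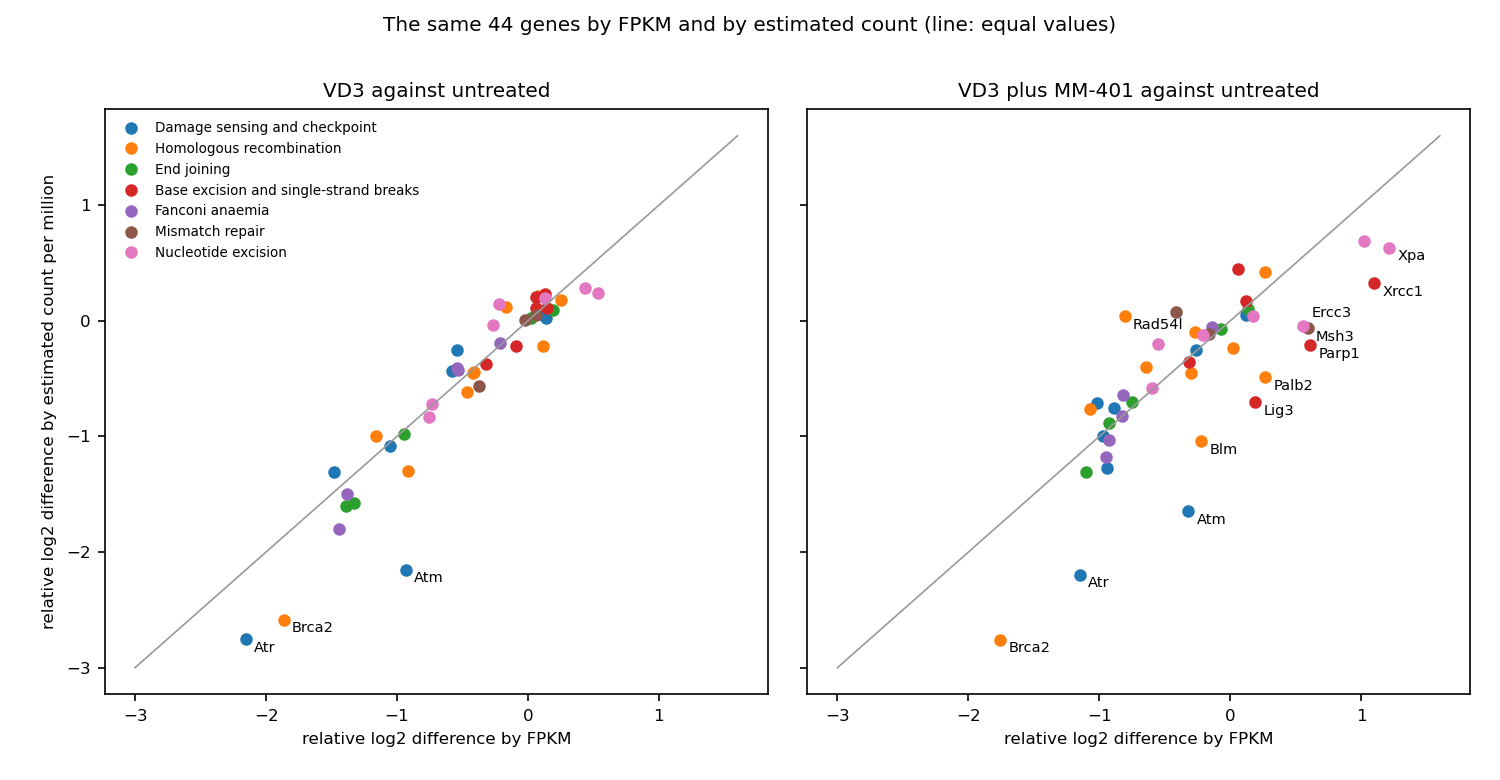
Relative log2 difference by FPKM (horizontal) against that by estimated count as a share of the pool's total (vertical) for the 44 repair genes, coloured by role, for VD3 and for VD3 plus MM-401 against untreated cells; the line marks equal values. Atm and Brca2 lie below the line in both panels, and with both agents Parp1, Lig3 and Palb2 are also lower by count than by FPKM.

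Low repair genes shared base composition and length. Earlier work on these data had already found that differences go with both. Across the 42 genes with a transcript model, the relative difference with VD3 had a Spearman correlation of 0.82 with the GC content of the transcripts and -0.60 with their length. With both agents these were 0.67 and -0.62. Over 8797 and 8817 protein-coding genes the same correlations were 0.56 and -0.39 with VD3 and 0.40 and -0.56 with both agents. Against VD3 with MM-401 added, 38 repair genes gave -0.11 and -0.03, and 8633 protein-coding genes gave -0.24 and -0.29. All points of a comparison share the same pools, and these values are descriptions across genes.

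The 11 repair genes under 45% GC were all below the median gene in both comparisons with untreated cells, with medians of -1.33 and -0.93. Among all protein-coding genes under 45% GC, 1588 of 1734 were below it with VD3 (median -0.99) and 1375 of 1754 with both agents (median -0.60). Of the 31 repair genes at or above 45%, 17 and 16 were below, with medians of -0.17 and -0.07. All 12 repair genes with transcripts over 5000 bases were below as well, at medians of -1.05 and -0.94, against 897 of 1159 and 970 of 1144 such protein-coding genes. After subtraction of a smooth curve over GC content and length, fitted to all protein-coding genes, the repair genes had medians of -0.05 and -0.06. Of the 42 genes, 0 then differed by 2-fold or more in either comparison. The authors' intervals were left unadjusted, and with both agents 0 repair genes had intervals apart, so calls there could not occur. Lig4 went to -0.49 and Fancb to -0.12 with VD3, Atr to -0.53, Brca2 to -0.39 and Rad50 to -0.80, the lowest value left. Prkdc went to -0.02 and Atm to 0.44 with VD3. With both agents Rad54l was lowest at -0.79, while Brca2 was at -0.68 and Atr at 0.08. The part of composition, of library preparation or of RNA quality in these differences was not tested.

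**Figure D4:**
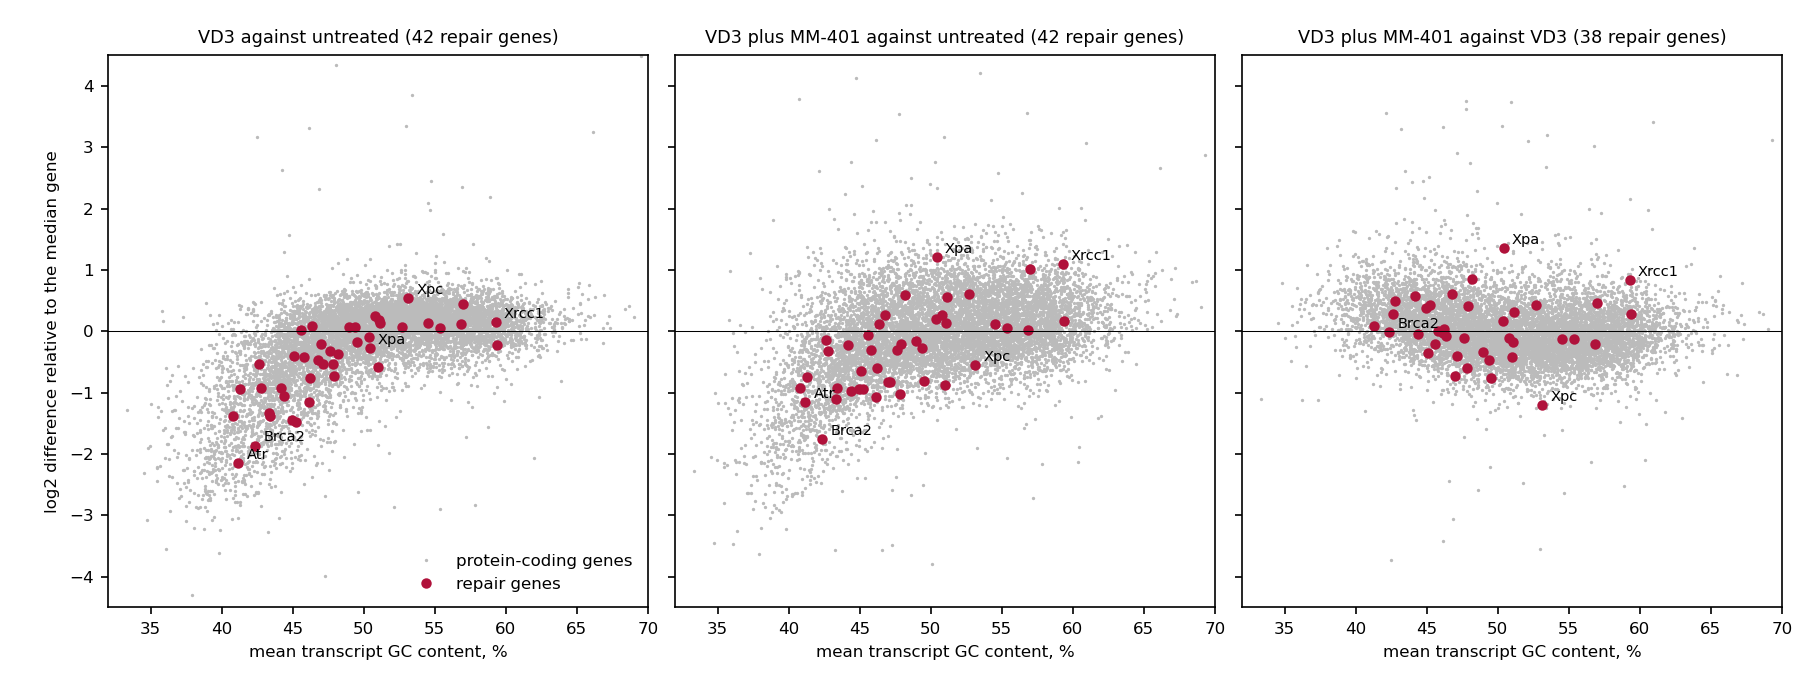
Relative log2 difference of the repair genes (red points) and of all protein-coding genes (grey) against the GC content of their transcripts in percent, for the 3 comparisons; 12 protein-coding genes lie outside the axes. In both comparisons with untreated cells the 11 repair genes under 45% GC are all below the zero line, and the comparison between the treated pools has no such slope.

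Other genes of the same pathways, 126 of 131 listed, included larger differences. With VD3, 0 of 117 were higher and 6 were lower, against 0.926% and 4.22% of all genes. Rif1, which acts with 53BP1 and in replication timing, had 73.4 [41.8 to 105], 10.4 [5.87 to 14.9] and 10.9 [0.387 to 21.4] FPKM, low in both treated pools with intervals apart from the untreated one. Smc5, of the SMC5/6 complex, had 28.0, 4.42 and 6.33 FPKM, and Etaa1, an activator of ATR, 16.7, 4.83 and 4.67 FPKM. Pms1, a MutL protein, had 13.2, 3.73 and 4.32 FPKM, Rbbp8, which encodes the resection factor CtIP, 16.6, 5.41 and 6.36 FPKM, and Polk, a translesion polymerase, 16.9, 5.31 and 7.11 FPKM. With both agents 5 of 119 were lower, these genes without Polk, and 2 were higher, against 2.68% and 4.26% of all genes. The higher ones were Rpa3, the small subunit of replication protein A, at 72.7 [48.0 to 97.4], 103 [68.4 to 138] and 165 [104 to 227] FPKM, and Gtf2h5, the small subunit of TFIIH, at 79.8 [52.8 to 107], 126 [83.6 to 168] and 173 [110 to 237] FPKM. In both the third pool alone was apart from the untreated one. Against VD3, 0 of 116 were called, where 0.83% of all genes were higher and 0.541% lower. By estimated count 15 of 117 were lower with VD3 and 11 of 119 with both agents, against 9.33% and 5.77% of all genes. By this scale none was higher, Rpa3 and Gtf2h5 included. Whether these shares differ from those of all genes was not tested. After the adjustment for GC content and length, with the intervals left unadjusted, 3 were called in each comparison with untreated cells. Rif1, Smc5 and Polk were lower with VD3, and with both agents Rif1 and Smc5 were lower and Rpa3 higher. Of protein-coding genes, 113 of 8797 and 116 of 8817 were called this way. As deposited, the medians of the other pathway genes relative to the median gene were -0.15, -0.07 and 0.07 in the 3 comparisons.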

How the data were processed

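RNA was measured by sequencing in 6 libraries, deposited as pooled values for 3 groups. The tools named per the submitters' processing notes are Cufflinks 2.2.1, TopHat2 2.1.1 and SAMtools 1.5, and the build is mm10; their settings and order are not stated there. The authors deposited FPKM for each assembled locus with a lower and an upper bound, and the estimated count of each locus with a count variance, a value in squared counts, per the file headers. Of 62490 loci, 14 were dropped because 1 or more pools lacked a valid status, and 11771 have no gene name. Loci of 1 name were summed, with their bounds and count variances.

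Differences are log2 ratios of FPKM + 1, for genes that reached 5 FPKM in the higher pool. Calls needed 2-fold and intervals apart, and the intervals were left as deposited after centring and after the composition adjustment. With pooled columns no test was run. GENCODE vM21 (GRCm38) gave coordinates, transcript length and GC content; the composition curve is a cubic spline with 4 knots for each of them. Alternatives were a pseudocount of 0.1, no filter or 1 FPKM, centring, estimated counts scaled to the pool's total, the composition adjustment and loci naming 1 gene. The interval-free rule and centred counts were added after seeing the data.

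Every gene of the set is accounted for. Values in all pools were due for called genes, the 3 highest and 3 lowest differences of each comparison and the extremes of level, and of the other pathway genes for at most 6 called ones per comparison. The genes, lists and call rule were chosen with earlier results of these data known. The labels do not say what the biological duplicates were. Python 3.11.15, pandas 2.3.3, numpy 2.4.6, scipy 1.17.1 and matplotlib 3.10.9 were used, and the scripts were tested on simulated data.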

Additional observations from a re-analysis of the deposited data

How the results depend on the processing

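No paired analysis was possible because the tables used here hold 1 pooled column per group, and for the same reason no library could be left out in turn. With VD3 against untreated, the 2 lower repair genes by FPKM became 9 by estimated count, 9 by centred count, 6 without the interval criterion (Atr, Brca2, Fancb, Fancm, Lig4 and Rad50) and 0 after the composition adjustment. The median difference (0.02 as deposited) was -0.35 centred on the median gene, -0.18 by count and -0.32 by centred count. With both agents against untreated, the 0 lower genes became 5 by count, 5 by centred count and 1 without the interval criterion (Brca2), and the 0 higher ones became 3 without it (Ercc1, Xpa and Xrcc1). The median (-0.02) was -0.29 centred, -0.27 by count and -0.31 by centred count. Against VD3 with MM-401 added, 1 gene was higher (Xpa) and 1 lower (Xpc) without the interval criterion. The cause of these shifts was not tested, except that leaving out a criterion can only add genes. The pseudocount, both other level filters and the restriction to loci naming 1 gene left each of these counts within 1.5 times and each median within 0.1. With VD3, the pseudocount of 0.1 and the centring (-1.33) each added Prkdc to the lower genes. Lig4 and Fancb, the genes called by FPKM with VD3, kept their sign there in every alternative. Of the genes lower by count, Atm had positive FPKM differences after the composition adjustment, 0.44 with VD3 and 0.68 with both agents. Atr was at 0.08 with both agents after it, and the others stayed negative. The pools' intervals limit what can be resolved: Xpa, Xrcc4, Ogg1, Rad54l and Atm have an interval from 0 in the untreated pool.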

Other observations

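Of 16 target genes of p53 with enough level, 0 were higher and 3 were lower by FPKM with VD3. Among all genes these shares were 0.926% and 4.22%, and whether the targets differ from them was not tested. The 3 lower targets were Trp53inp1, a stress-induced regulator of autophagy (73.9, 9.31 and 17.7 FPKM in the order untreated, VD3 and both agents), Ccng1, an atypical cyclin (110, 46.6 and 85.5 FPKM), and Eda2r, a receptor of the tumour necrosis factor family (10.05, 3.82 and 4.81 FPKM). With both agents Trp53inp1 alone was lower, of 17, against 2.68% of all genes. After the adjustment for GC content and length, 1 target was called with VD3 and 0 with both agents. By estimated count Mdm2 was also lower with VD3, and Eda2r with both agents, which made 4 of 16 and 2 of 17. Among all genes 9.33% and 5.77% were lower on this scale. Cdkn1a, the p21 cell cycle inhibitor, had 46.9, 57.4 and 53.7 FPKM, and Mdm2, the ligase of p53, 167, 102 and 143 FPKM. The list's medians relative to the median gene were -0.05 and -0.08.

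Of 22 proliferation genes, 0 were called by FPKM in either comparison with untreated cells, while by estimated count Mki67 and Bub1 were lower in both. By count 9.33% of all genes were lower with VD3 and 5.77% with both agents. By FPKM the list was at medians of 0.08 and 0.13 relative to the median gene. Mki67, a marker of cycling cells, had 58.1, 22.5 and 18.0 FPKM, and Bub1, a spindle checkpoint kinase, 125, 41.2 and 44.6 FPKM. Pcna, the replication clamp, had 131, 160 and 203 FPKM, and Ccne1, cyclin E1, 229, 495 and 382 FPKM. Mki67, Bub1, Pcna, Ccne1, Cdkn1a and Mdm2 were chosen after their values were seen.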
